A study of Mus musculus with 2 samples.

Results

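The genes described here are 35 imprinted mouse genes in 14 domains, taken as a fixed list of names, together with the called chromatin contacts at their ends. A contact was assigned to a gene when either of its 5 kb anchor bins lay within 10 kb of either annotated end of that gene. By this rule 24 of the 4872 contacts called in Tet2/3 DKO cells and 22 of the 5811 called in WT cells belonged to imprinted genes. Of the 35 genes 34 are protein-coding, out of 21887 protein-coding genes of the annotation, and H19 is a long noncoding RNA. The rule itself used positions only, but it was applied to contacts that had already passed the call. The genes were named with earlier results of these data known.

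The data are Hi-C contacts of hair matrix keratinocytes, the proliferating epithelial cells at the follicle base that form the hair shaft and its inner sheath. The DKO library came from mice lacking Tet2 and Tet3 through Krt14-Cre, and the WT library from mice labelled WT with no Cre named, both at P4.5 (postnatal day 4.5). The Krt14 promoter drives Cre in basal keratinocytes and the cells that descend from them, so the deletion follows that epithelial lineage. There was 1 library per genotype, from sorted primary cells, and the labels do not say how many animals each pooled. No test, p-value or replicate check was therefore possible, and genotype and library cannot be told apart in any difference below. Contacts do not measure transcripts, so the cell type label could not be checked with them. Of 8 keratinocyte marker genes, 6 had a contact at an end in the DKO list and the same 6 in the WT list. Krt5 and Lef1 had none. Of all protein-coding genes, 12.9% had one in both lists. The markers were chosen with earlier results of these data known, so their share says nothing of cell identity.

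Imprinted genes are expressed mainly from the maternal or from the paternal chromosome, and they cluster in domains that share a control region methylated on a single parental copy. At H19 and Igf2 the insulator protein CTCF binds the unmethylated maternal control region, and in the Kcnq1 domain the long noncoding RNA Kcnq1ot1 is transcribed from the unmethylated paternal one and silences neighbours such as Cdkn1c. TET2 and TET3 oxidise 5-methylcytosine, the base modification that marks these regions. The contacts here were not separated by parental allele, so each value is a sum over both chromosomes.

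A pixel is a pair of 5 kb bins whose contact count exceeded the counts expected from its surroundings at a false discovery rate (FDR) under 0.1. Enrichment is the observed contact count divided by the count expected from the ring of bins around the pixel, the donut neighbourhood. Intervals are exact 95% intervals. They cover counting error only and treat the expected counts as fixed. A pixel counted as matched when the other list held a pixel within 2 bins at both anchors, and pixels whose anchors lay within 20 kb of each other were joined into loops. A gene missing from a list had no called pixel, which says nothing of the contacts below the call.

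The DKO list held 4872 pixels in 2641 loops, with a median span of 100 kb and a median enrichment of 4.95. The WT list held 5811 pixels in 2902 loops, with a median span of 115 kb and a median enrichment of 5.11. Counts per pixel were low in both lists, with a median of 18 contacts. At the 1940 pixels listed in both libraries the expected counts had a median DKO/WT ratio of 0.973. Total sequencing depth is not given in the sources used here.

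Promoter sequences are shown for the members whose promoter lay in a called anchor bin, and for Peg3 as an example of one beside a bin. An anchor bin is 5 kb long, so a contact cannot be placed on a promoter within it. Among promoters not shown, that of Usp29 lay 333 bp from the DKO bin near Peg3, and that of Plagl1 582 bp from a WT bin. RefSeq promoters were found for 28 of the 35 members. Sgce, Peg10, Kcnq1, Rtl1, H19, Impact and Cdkn1c had no entry. The sequences are the 250 bases before the gene start, from RefSeq GRCm38.p6, written 5′ to 3′ on the gene's own strand, with each CpG, the dinucleotide that carries methylation, in capitals. Slc22a18 (chr7:143473539-143473788, plus strand) lay in an anchor bin of both lists. Blcap (chr2:157566362-157566611, minus strand) and Copg2 (chr6:30896795-30897044, minus strand) lay in a WT anchor bin. Commd1 (chr11:22982285-22982534, minus strand) lay in a DKO anchor bin, and Peg3 (chr7:6730420-6730669, minus strand) ended 370 bp from a DKO one, measured over its full promoter of 300 bases.
Slc22a18: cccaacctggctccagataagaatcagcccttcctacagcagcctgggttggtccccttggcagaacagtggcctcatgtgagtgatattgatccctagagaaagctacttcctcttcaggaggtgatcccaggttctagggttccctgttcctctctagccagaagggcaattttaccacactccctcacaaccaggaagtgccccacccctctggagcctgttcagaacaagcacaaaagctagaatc
Blcap: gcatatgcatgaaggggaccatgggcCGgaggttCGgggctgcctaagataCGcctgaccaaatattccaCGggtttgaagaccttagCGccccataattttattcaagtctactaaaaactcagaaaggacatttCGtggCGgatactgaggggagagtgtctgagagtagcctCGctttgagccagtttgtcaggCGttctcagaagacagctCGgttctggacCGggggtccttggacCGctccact
Copg2: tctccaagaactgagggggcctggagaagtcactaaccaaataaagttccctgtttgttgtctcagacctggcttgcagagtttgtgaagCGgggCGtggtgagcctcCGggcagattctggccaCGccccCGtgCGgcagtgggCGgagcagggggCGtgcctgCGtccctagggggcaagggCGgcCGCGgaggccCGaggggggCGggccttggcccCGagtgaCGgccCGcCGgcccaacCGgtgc
Commd1: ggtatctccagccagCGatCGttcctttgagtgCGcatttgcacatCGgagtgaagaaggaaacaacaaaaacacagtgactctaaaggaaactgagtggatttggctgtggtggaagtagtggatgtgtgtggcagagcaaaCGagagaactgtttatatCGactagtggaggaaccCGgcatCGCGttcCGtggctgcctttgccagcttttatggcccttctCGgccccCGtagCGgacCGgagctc
Peg3: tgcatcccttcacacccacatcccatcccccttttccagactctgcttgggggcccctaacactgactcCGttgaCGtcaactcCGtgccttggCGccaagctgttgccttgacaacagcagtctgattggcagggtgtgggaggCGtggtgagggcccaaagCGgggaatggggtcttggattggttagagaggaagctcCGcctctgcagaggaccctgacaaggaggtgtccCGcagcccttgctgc
The CpG content of these promoters differed widely. The Slc22a18 stretch held 0 CpG, Peg3 held 8, Blcap 12, Commd1 14 and Copg2 19. Over the full 300-base promoters the 44 member promoters had a median of 17 CpG, and all 32851 promoters had a median of 7 with quartiles of 3 and 20. The letters AGGNGGC, the inner core of the CTCF motif, were searched on both strands. They occurred in 21 of the 44 member promoters and in 29.4% of all promoters. The 44 promoters come from 28 genes and some overlap, as at Gnas and Mest, so they are not independent. The comparison was not adjusted for the higher CpG content of the member promoters. Among the stretches printed above only Copg2 held the letters, with 3 matches. A match describes the letters and not a bound site.

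Contacts were called at the ends of 13 of the 35 imprinted genes in DKO cells, or 37.1% (21.5 to 55.1), where 20.1% of all protein-coding genes had one. In WT cells 8 imprinted genes had one, or 22.9% (10.4 to 40.1), against 21.2% of protein-coding genes. The intervals treat genes as independent, which neighbours that share pixels are not. The 13 genes lay in 7 domains and the 8 genes in 5.

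The cyclin-dependent kinase inhibitor gene Cdkn1c, the transporter gene Slc22a18, Igf2, H19, the coatomer gene Copg2, and the overlapping pair Nnat and Blcap had a contact in both lists. These 7 genes make up 20.0% of the members (8.44 to 36.9), where 12.9% of protein-coding genes had a pixel in both lists. A further 6 genes had a contact in the DKO list alone: Mest, Peg3, Usp29, Grb10, Zrsr1 and Commd1. That share was 17.1% (6.56 to 33.6), and 7.14% of protein-coding genes were found in the DKO list alone. The zinc finger gene Plagl1 was the single member found in the WT list alone, a share of 2.86% (0.0723 to 14.9) beside 8.24% of protein-coding genes. This split of 6 genes to 1 changed with the FDR level and with the chosen distance. With a window of 20 kb it was 5 to 5. With FDR under 0.01 in all 4 neighbourhoods it was 2 DKO genes to 0 WT genes. Those 2 were Igf2 and H19, and none of the 6 genes named above as DKO alone met that level.

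By domain, 4 had contacts in both lists, 3 in the DKO list alone, 1 in the WT list alone and 6 in neither. The Kcnq1 and Cdkn1c domain had 5 DKO pixels and 8 WT pixels, the Igf2 and H19 domain 6 and 4, and the Nnat domain 4 and 8. The Zrsr1 domain had 5 DKO pixels and 0 WT pixels. Only the first 3 of these domains held a WT pixel that was matched in DKO cells.

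**Figure D1:**
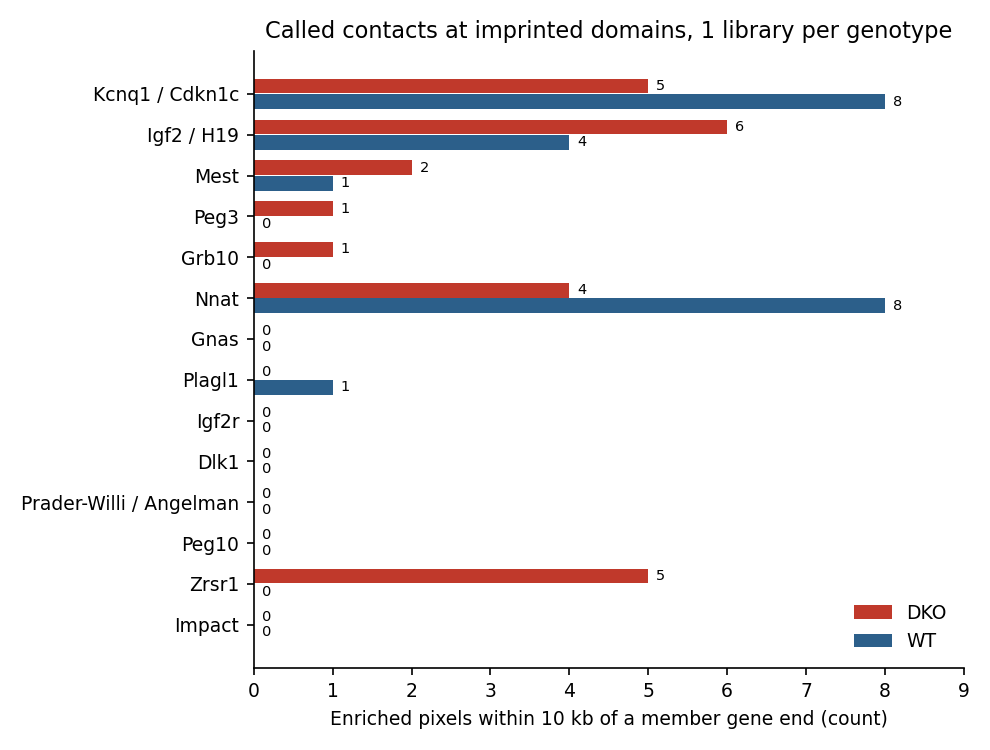
The bars give the number of enriched pixels within 10 kb of a member gene's end in each imprinted domain, DKO above WT, with 1 library per genotype. The Kcnq1 and Cdkn1c domain has 5 DKO and 8 WT pixels and the Zrsr1 domain 5 and 0, and 6 of the 14 domains have none in either list.

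Of the 24 DKO pixels at imprinted genes 13 were matched in the WT list, or 54.2% (32.8 to 74.4), where 70.5% of all DKO pixels were. Of the 22 WT pixels 19 were matched in the DKO list, or 86.4% (65.1 to 97.1), where 67.6% of all WT pixels were. Neighbouring pixels of a loop are not independent, so these intervals are too narrow. Contacts at imprinted genes spanned a median of 277.5 kb (70 to 310) in DKO cells and 287.5 kb (140 to 315) in WT cells, against 100 and 115 kb over the whole DKO and WT lists. Counted as loops the difference was smaller. The 13 DKO loops at imprinted genes had a median span of 230 kb (70 to 315) and the 9 WT loops a median of 230 kb (65 to 340). Of these, 7 DKO loops and 5 WT loops were longer than 200 kb, or 53.8% and 55.6%, where 21.9% of all DKO loops and 26.0% of all WT loops were.

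Median enrichment was 5.88 (5.12 to 7.31) over the DKO pixels at imprinted genes and 5.29 (4.42 to 5.75) over the WT pixels, so the intervals overlap. The strict FDR under 0.01 was met by 8 of the 24 DKO pixels and by 7 of the 22 WT pixels. Those are 33.3% and 31.8%, beside 41.3% of all DKO pixels and 43.0% of all WT pixels. The shares rest on few pixels, and neighbouring pixels of a loop are not independent. Their distance from the whole lists was not tested.

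**Figure D2:**
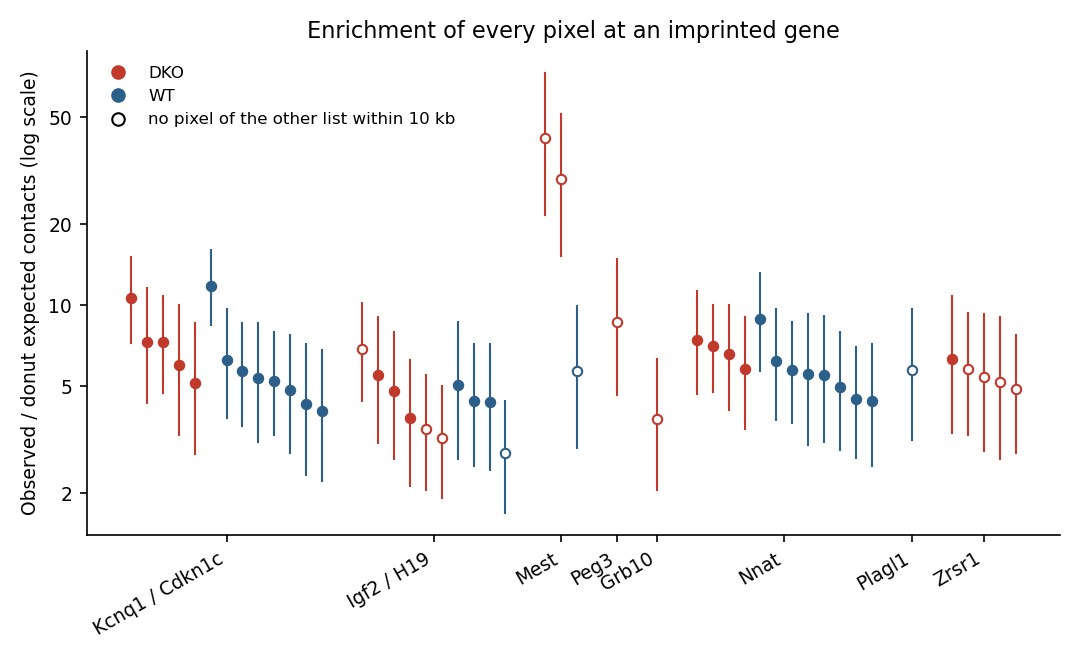
Each point is the enrichment (observed over donut expected contacts, log scale) of a pixel at an imprinted gene with its exact 95% Poisson interval, DKO pixels left of WT pixels within a domain and open symbols for pixels with no pixel of the other list within 10 kb. Most points lie between 2.81 and 11.8, and the 2 Mest pixels at 29.4 and 41.8 have donut expected counts under 1.

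Among the 35 members, the contact with the highest observed count in either list joined the Cdkn1c and Slc22a18 region to a site inside Kcnq1. CDKN1C (p57Kip2) is a maternally expressed inhibitor of cyclin-dependent kinases that restrains growth, SLC22A18 is a membrane transporter, also maternally expressed, and KCNQ1 is a voltage-gated potassium channel subunit. The contact was a single loop in each list, of 5 pixels in DKO cells and 8 pixels in WT cells, and every one of them was matched. Its member-side bins ran from Cdkn1c (chr7:143458339-143461059) to the start of Slc22a18 (chr7:143473726-143499334), and the 2 genes share most of these pixels. The bin with the most contacts, starting at 143465001, lay between the genes. Its other anchor lay in the body of Kcnq1 (chr7:143106877-143427050), between bins starting at 143145001 and 143160001. The lncRNA Gm28821 ended within 10 kb of that side at some of the pixels. The Kcnq1ot1 gene (chr7:143213111-143296547) lay between the anchors and touched neither.

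The top pixel, chr7:143150001-143155000 with chr7:143465001-143470000, held 31 contacts in DKO cells and 41 contacts in WT cells. Against donut expected counts of 2.92 in DKO cells and 3.48 in WT cells, its enrichment was 10.6 (7.21 to 15.1) in DKO cells and 11.8 (8.46 to 16.0) in WT cells. The DKO/WT ratio of enrichment was 0.900 (0.546 to 1.47), an interval that holds 1. By observed count it ranked 196 of 4872 in the DKO list and 64 of 5811 in the WT list. The neighbouring pixel, 5 kb further along Kcnq1, held 25 contacts in DKO cells and 22 contacts in WT cells, with a ratio of 1.29 (0.695 to 2.39). The pair of shared pixels thus lay on opposite sides of 1.

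The rest of this loop had 14, 14 and 18 contacts in DKO cells and between 14 and 22 contacts in WT cells. Enrichment over the whole loop was 5.12 to 10.6 in the DKO pixels and 4.04 to 11.8 in the WT pixels. A loop of at least 5 pixels was seen 169 times among 2641 DKO loops, and a loop of at least 8 pixels 46 times among 2902 WT loops. Within a loop of fixed position, more listed pixels means that more of the neighbouring bins passed the call.

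The other members of the domain had no contact at their ends in either list. These were Kcnq1 itself by its own ends, the placental growth regulator Phlda2, the basic helix-loop-helix factor gene Ascl2, Tssc4 and the tetraspanin gene Cd81. The nearest anchor to an end of Kcnq1 was 32951 bp away in the DKO list and 16877 bp away in the WT list. In the WT list that anchor belonged to an 80 kb contact between Tspan32 and Trpm5, with 19 contacts, an enrichment of 3.90 (2.35 to 6.09) and an FDR of 0.082. The same pixel lay 13908 bp from Tssc4 and 17071 bp from Cd81, outside the 10 kb limit.

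The contacts at H19 ran away from Igf2. H19 is a maternally expressed lncRNA and the host of Mir675, and Igf2 is the paternally expressed gene of an insulin-like growth factor. None of the 4 DKO and 2 WT pixels at H19 (chr7:142575530-142578146) reached Igf2 (chr7:142650768-142666816). All 6 went to lower-numbered positions, towards a group of muscle and housekeeping genes.

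The longest of them, over 245 kb to the body of Ifitm10, held 24 contacts in DKO cells with an enrichment of 6.86 (4.39 to 10.2) and an FDR of 5.2e-06. The WT list had no pixel within 10 kb of it. A contact with the bin holding the ends of the synaptotagmin gene Syt8 and the troponin gene Tnni2 was called in both lists, 1 bin apart at the H19 side. It had 15 contacts in DKO cells over 135 kb and 16 contacts in WT cells over 140 kb. Its enrichment was 4.80 (2.69 to 7.91) in DKO cells and 4.41 (2.52 to 7.16) in WT cells.

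Shorter contacts at H19 had lower enrichment, with 18 or 19 contacts each. In DKO cells 2 neighbouring pixels of 60 and 50 kb, in bins between the troponin gene Tnnt3 and the mitochondrial ribosomal protein gene Mrpl23, had 18 and 19 contacts and enrichments of 3.47 (2.06 to 5.49) and 3.20 (1.93 to 4.99). In WT cells a pixel of 40 kb, in the bin holding ends of Mrpl23 and the lncRNA Nctc1, had 19 contacts and an enrichment of 2.81 (1.69 to 4.39). Neither the DKO pair nor the WT pixel was matched.

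Igf2 had a short contact at its 5′ side in both lists. It joined bins 3185 bp or more beyond the gene's 5′ end to the lncRNA gene Gm33148 (chr7:142591659-142620811), which lies between H19 and Igf2. The pixel of 60 kb listed in both libraries held 15 contacts in DKO cells and 13 contacts in WT cells. Its enrichment was 5.48 (3.07 to 9.05) in DKO cells and 5.04 (2.68 to 8.62) in WT cells, with a ratio of 1.09 (0.483 to 2.48). The second pixel of this loop held 15 contacts in each list, over 70 kb in DKO cells and over 65 kb in WT cells, with enrichments of 3.80 (2.13 to 6.27) and 4.34 (2.43 to 7.17). The DKO anchor at 142675001 also held the insulin gene Ins2, and the Igf2-side bin of the other pixels lay within 10 kb of Ins2. None of these pixels can therefore be given to Igf2 alone.

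**Figure D3:**
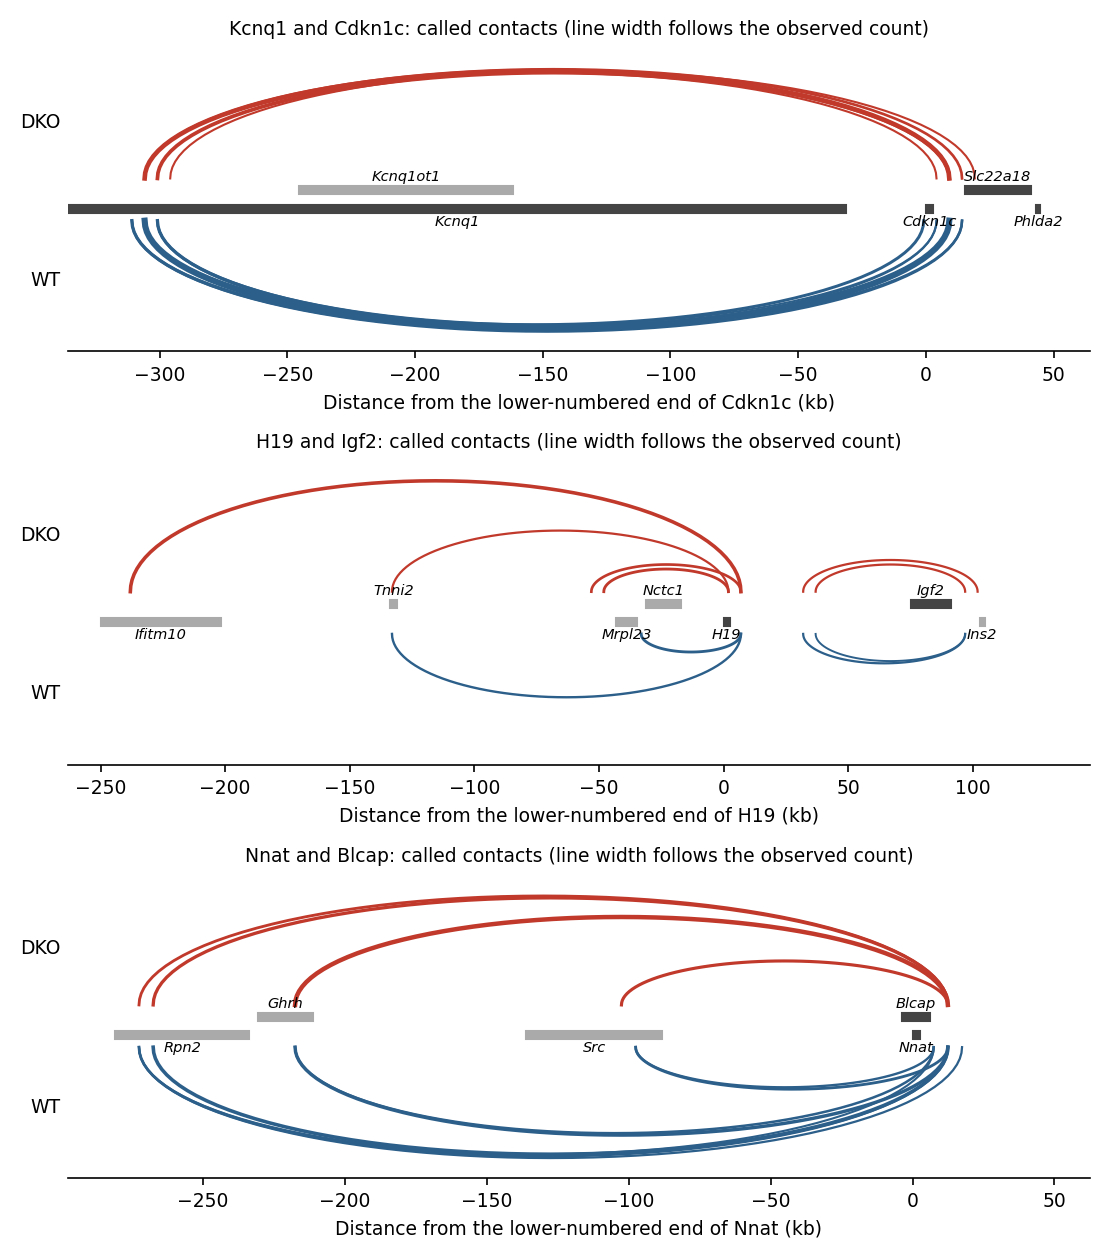
Arcs join the anchor bins of called contacts at the Kcnq1 and Cdkn1c, H19 and Igf2, and Nnat and Blcap domains, DKO above the genes and WT below, with line width following the observed count and the horizontal axis giving distance in kb from a member's lower-numbered end. The loop of 5 DKO and 8 WT pixels passes over Kcnq1ot1, and no arc joins H19 to Igf2.

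The contacts at Nnat and Blcap were called in both lists and all were matched. Nnat encodes neuronatin, a small membrane proteolipid expressed from the paternal copy, and lies inside Blcap (chr2:157556362-157566361), a gene linked to apoptosis. All 4 DKO pixels shared the bin chr2:157570001-157575000, which begins 3640 bp past the 5′ end of Blcap and 7476 bp from Nnat. The 8 WT pixels used that bin and those on either side of it. Because the genes overlap, 7 of the WT pixels and all of the DKO ones counted for both.

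The partners were the oligosaccharyltransferase subunit gene Rpn2, the growth hormone-releasing hormone gene Ghrh and the tyrosine kinase gene Src. With Ghrh, over 230 kb, the shared pixel held 30 contacts in DKO cells and 23 contacts in WT cells, at enrichments of 7.02 (4.74 to 10.0) and 5.75 (3.65 to 8.63). The ratio of enrichment there was 1.22 (0.686 to 2.20). With Rpn2, over 280 kb, there were 22 contacts in DKO cells and 24 contacts in WT cells, a ratio of 0.841 (0.450 to 1.57).

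The adjoining Rpn2 pixel of 285 kb had 19 contacts in each list and a ratio of 0.930 (0.466 to 1.86). In WT cells the Rpn2 loop also had weaker pixels of 280 and 290 kb. They held 14 and 15 contacts at enrichments of 5.54 (3.03 to 9.29) and 5.52 (3.09 to 9.10), with FDR values of 0.049 and 0.079. A further WT pixel with Ghrh, of 225 kb, held 17 contacts at an enrichment of 4.97 (2.90 to 7.96) and an FDR of 0.071. The contact with the body of Src was called 1 bin apart in the lists. It held 21 contacts in DKO cells over 115 kb with an enrichment of 6.56 (4.06 to 10.0), and 19 and 16 contacts in WT cells over 110 and 105 kb with enrichments of 4.47 (2.69 to 6.98) and 4.42 (2.52 to 7.17). The intervals of the DKO and WT values overlap.

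Across the imprinted genes 6 pixels were listed in both libraries at the same bins. Enrichment was higher in DKO cells at 3 of them and lower at 3, with a median log2 ratio of 0.01. The median over all 1940 pixels listed in both libraries was -0.02, with quartiles of -0.25 and 0.20. The interval of the ratio left out 1 at 0 of the 6, and at 31 of the 1940, or 1.60%. With 13 to 41 contacts a pixel these intervals were wide, and the narrowest ran from 0.546 to 1.47, so a change smaller than that could not be seen at this depth.

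**Figure D4:**
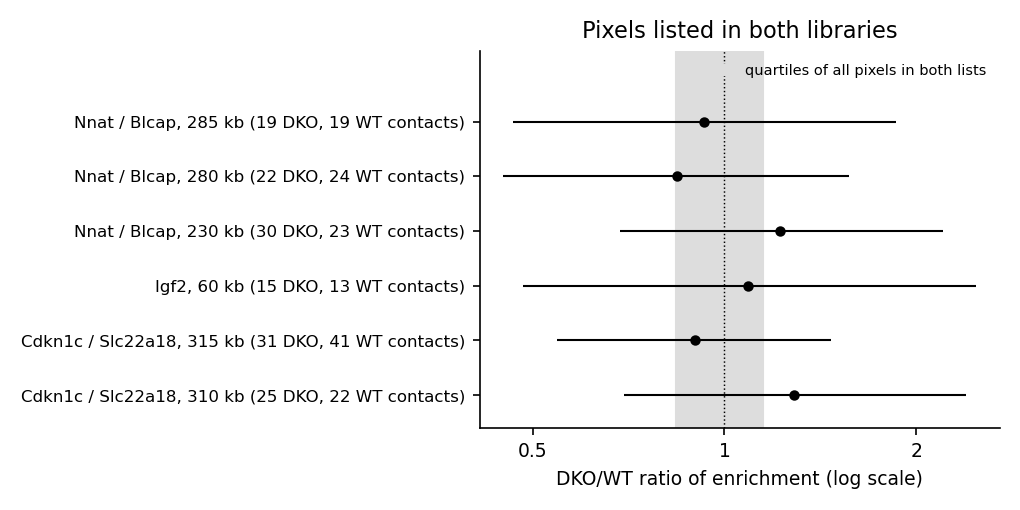
Points are the DKO/WT ratio of enrichment (log scale) at the 6 pixels of imprinted genes listed in both libraries, with exact 95% conditional binomial intervals, and the grey band holds the middle quartiles of all 1940 such pixels. Ratios run from 0.841 to 1.29 and every interval holds 1.

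Contacts at Zrsr1 and Commd1 were called in DKO cells alone by the 10 kb rule. Zrsr1, a paternally expressed splicing factor gene, lies inside Commd1 (chr11:22899728-22984539), whose product acts in copper handling and NF-kB control. The 5 DKO pixels formed 2 loops that left the genes in opposite directions. Towards lower positions, 2 pixels of 335 and 340 kb held 13 and 16 contacts at enrichments of 6.29 (3.35 to 10.8) and 5.78 (3.30 to 9.38), and their other bins held no gene.

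Towards higher positions, 3 pixels of 290, 290 and 275 kb reached the exportin gene Xpo1 (chr11:23255909-23297597). They held 17, 12 and 13 contacts, at enrichments of 4.85 (2.83 to 7.77), 5.18 (2.68 to 9.04) and 5.41 (2.88 to 9.25). The smallest of their FDR values was 0.0103, so none passed the strict level of 0.01. The lower loop was not missing from the WT list. A WT pixel of 320 kb, with 12 contacts and an enrichment of 6.0 (3.10 to 10.5), matched 1 of its pixels but lay 12005 bp from Zrsr1, just past the limit. No WT pixel lay within 10 kb of an Xpo1 pixel at both anchors.

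The values nearest the 10 kb limit show how much it decides. Just inside it was the Grb10 contact of DKO cells, at 9502 bp. Just outside it were the WT contact near Zrsr1 at 12005 bp and the WT contact near Tssc4 at 13908 bp.

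GRB10 is an adaptor protein that damps insulin and IGF receptor signalling. Its contact in DKO cells ran over 70 kb from a bin in the 3′ part of the gene to a bin inside both 1700042O10Rik and Ddc. Ddc is the neighbouring imprinted gene for DOPA decarboxylase. This pixel held 14 contacts at an enrichment of 3.76 (2.05 to 6.30). A stronger contact of Grb10 began further inside the gene (chr11:11930499-12037428) and did not count under the rule. It joined bins from 11970001 to 11980000 to the far end of Ddc, beside the end of Fignl1, over 150 to 165 kb. It had 5 DKO pixels of 13 to 21 contacts, at enrichments of 5.65 to 7.73, and 4 WT pixels of 13 to 20 contacts, at enrichments of 4.99 to 7.97. All 9 were matched.

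The Mest contact in DKO cells rested on very low expected counts. Mest, a paternally expressed gene of the alpha/beta hydrolase family, and Copg2, a coatomer subunit gene read from the other strand, overlap at their 3′ ends. The longer DKO pixel began in the bin that holds this overlap and the shorter one in the next bin, 1535 bp past the end of Mest and within Copg2, and both ended in the body of Copg2. They were 55 and 50 kb long and held 12 contacts each. Their enrichments of 29.4 (15.2 to 51.4) and 41.8 (21.6 to 73.1) came from donut expected counts of 0.408 and 0.287, and the bottom-left expected count was 0 at both. The larger of their FDR values was 0.067.

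The WT contact at Copg2 was another one, at its 5′ end. It ran over 390 kb to the bin holding ends of Tmem209 and Ssmem1, with 12 contacts, an enrichment of 5.67 (2.93 to 9.90) and an FDR of 0.0999. Copg2 therefore had a contact in each list but no contact in common.

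Peg3 and Usp29 shared a DKO pixel. Peg3 encodes a paternally expressed zinc finger protein, and Usp29, a ubiquitin-specific peptidase gene, starts beside it on the other strand. The anchor lay in Peg3, 462 bp from its 5′ end and 559 bp from Usp29. It reached the zinc finger gene Zfp78 over 365 kb, with 13 contacts, an enrichment of 8.68 (4.62 to 14.8) and an FDR of 0.013. No WT pixel had an anchor within 10 kb of either gene, the nearest WT anchor being 503892 bp from Peg3. The third member of the domain, the zinc finger gene Zim1, had none in either list.

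Plagl1 encodes a paternally expressed zinc finger transcription factor. Its contact in WT cells began 832 bp before the 5′ end and ran over 340 kb to the body of Phactr2, with 14 contacts, an enrichment of 5.76 (3.15 to 9.66) and an FDR of 0.0136. The nearest DKO anchor lay 70832 bp from Plagl1.

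There were 21 of 35 members without a contact at their ends in either list, and 71.7% of all protein-coding genes had none. Beside the 5 of the Kcnq1 domain and Zim1, these members were Gnas, Igf2r, Dlk1, Rtl1, Ndn, Magel2, Mkrn3, Snrpn, Ube3a, Peg10, Sgce, Ppp1r9a, Asb4, Calcr and Impact. Gnas, the gene of the stimulatory G protein alpha subunit, nevertheless had contacts from within its body. In DKO cells these were 2 pixels with 15 contacts each, of 360 and 590 kb, at enrichments of 8.64 (4.84 to 14.3) and 8.68 (4.86 to 14.3). In WT cells they were 5 pixels of 13 to 15 contacts, at enrichments of 7.39 to 9.14. The partners lay in Zfp831 and beyond it. Both DKO pixels and 4 of the 5 WT pixels were matched.

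Igf2r, the receptor gene that clears IGF2, had a contact 17406 bp from its end in both lists. That pixel of 130 kb held 19 contacts in DKO cells and 15 contacts in WT cells, at enrichments of 6.48 (3.90 to 10.1) and 5.19 (2.90 to 8.56). Asb4, a gene of the ankyrin repeat and SOCS box family, had a WT pixel anchored inside its body, 18022 bp from its end. That pixel held 16 contacts at an enrichment of 12.5 (7.15 to 20.3), the highest of any WT pixel within 20 kb of a member. The DKO list had no pixel within 10 kb of it. Impact, a translation regulator gene, had its nearest anchor 27051 bp away in the DKO list and 89690 bp away in the WT list.

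The genes of the Prader-Willi and Angelman domain were Ndn and Magel2 of the MAGE family, the makorin gene Mkrn3, the splicing protein gene Snrpn and the ubiquitin ligase gene Ube3a. Their nearest anchors were 504848 to 3614164 bp away in the DKO list and 499848 to 3609164 bp away in the WT list. For the Notch ligand-like gene Dlk1 the distance was 617485 bp in the DKO list and 52485 bp in the WT list, and for the retrotransposon-derived gene Rtl1 it was 729900 bp and 164900 bp. The 5 genes of the Peg10 domain, which include Asb4, the sarcoglycan gene Sgce and the calcitonin receptor gene Calcr, were 2771979 to 4440288 bp from the nearest DKO anchor and 18022 to 650288 bp from the nearest WT anchor, the lowest WT value being that of Asb4.

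**Figure D5:**
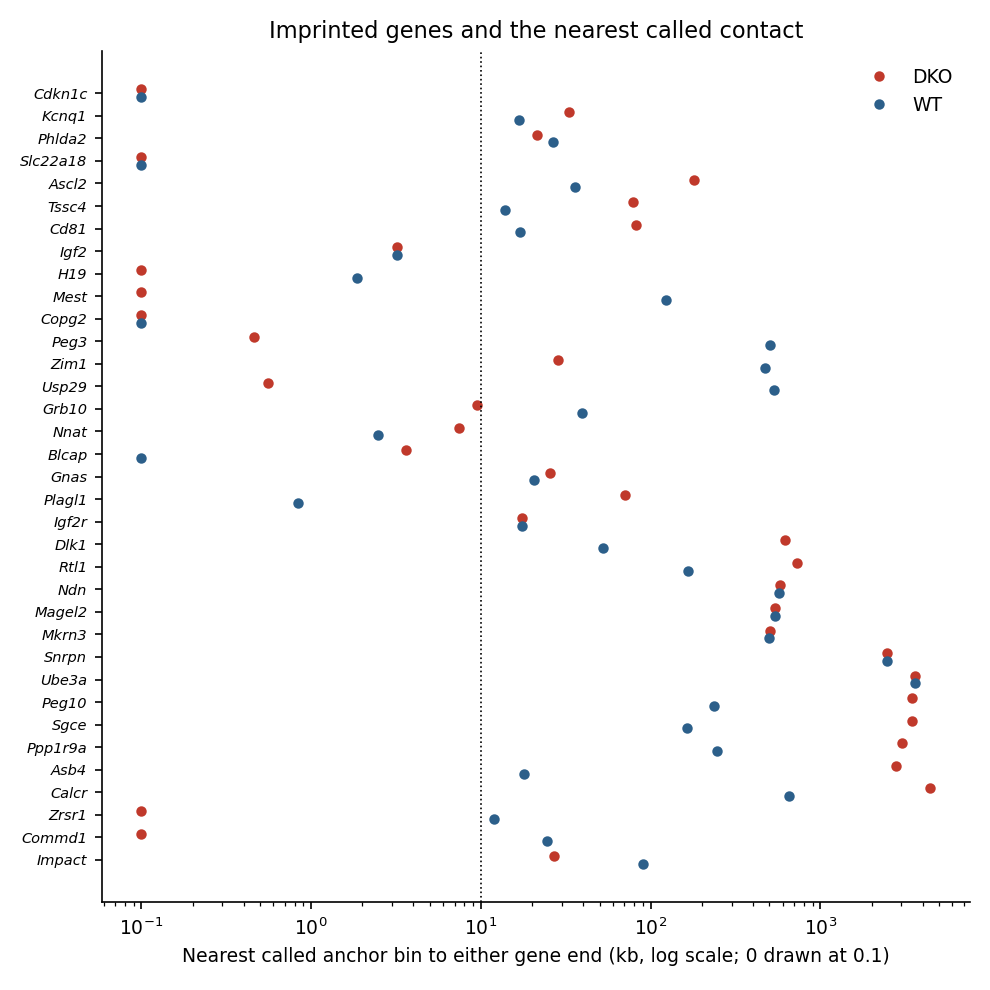
For each imprinted gene the points give the distance in kb (log scale, 0 drawn at 0.1) from its ends to the nearest called anchor bin in the DKO and the WT list, and the dotted line is the 10 kb limit. Members left of the line number 13 in DKO cells and 8 in WT cells, and the Prader-Willi and Angelman genes lie far to the right in both.

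Other imprinted genes were counted from a second list of 46 names, of which 43 were found in the annotation. The DKO list had a contact at 9 of them and the WT list at 11, with 8 in both: Ddc, Trappc9, Ago2, H13, Mcts2, Ins2, Osbpl5 and Dhcr7. These counts are 20.9% and 25.6% of the 43, beside 20.1% and 21.2% of all protein-coding genes in the DKO and WT lists, so they lie near the background. The 8 genes are 18.6%, beside 12.9%. Inpp5f was found in the DKO list alone, and Cpa4, Tspan32 and Trpm5 in the WT list alone, where 7.14% and 8.24% of protein-coding genes were in the DKO or the WT list alone. The contact joining Trappc9, a vesicle trafficking gene, to Ago2, a gene of the small-RNA machinery, was stronger in counts than any at the 35 members. Over 120 kb it held 51 contacts in DKO cells and 57 contacts in WT cells, at enrichments of 10.9 (8.14 to 14.4) and 10.8 (8.15 to 13.9).

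At Osbpl5, a gene of the oxysterol-binding family beyond Phlda2, the top pixel held 53 contacts in DKO cells and 52 contacts in WT cells, 11 pixels being listed in each, although the top bins differed by 5 kb on the Osbpl5 side. At Mcts2, a retrogene inside H13, the pixel of 45 kb held 32 contacts in DKO cells and 30 contacts in WT cells. At the sterol reductase gene Dhcr7 a pixel of 75 kb held 18 contacts in DKO cells and 20 contacts in WT cells. Each of these pairs has overlapping intervals of enrichment.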

How the data were processed

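Hi-C of sorted hair matrix keratinocytes was deposited as 1 list of enriched pixels per library, 1 DKO and 1 WT. Per the submitters' processing notes, reads were processed with Juicer on GRCm38 (mm10), and juicer_tools 1.22.01 produced both lists, per the file headers, in the layout of its HiCCUPS step. Neither the aligner nor the read filters and depth is given in the sources used here. The authors deposited a raw, unnormalised count of observed contacts per pixel. The deposited signal of expected contacts, in units of contacts, comes from 4 neighbourhoods (bottom-left, donut, horizontal, vertical). The authors deposited with it a score, the number of the expected-count class, and 1 q-value (FDR) per neighbourhood. The score was not used. All deposited q-values were under 0.1.

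From these values enrichment, matching and loops were computed in Python 3.11.15 with pandas 2.3.3, numpy 2.4.6 and scipy 1.17.1, and figures with matplotlib 3.10.9. The functions were tested on simulated pixels. Gene ends were those of RefSeq on GRCm38.p6, which is also the lists' build, and coordinates are 1-based. Counts have exact Poisson intervals, shares Clopper-Pearson intervals, ratios of counts conditional binomial intervals, and medians order-statistic intervals, all at 95%. With 1 library per genotype nothing was tested.

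The 35 members and all other gene lists were chosen with earlier results of these data known. Every member is accounted for. Members with a pixel are described with all their pixels or the range of them, and partner genes are those with an end within 10 kb of the other anchor or holding it. Alternatives were windows of 0, 5 and 20 kb, FDR under 0.01, minimum observed and expected counts, the other neighbourhoods, and matching within 0, 1 and 5 bins. Sequence at anchors away from promoters was not used.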

Additional observations from a re-analysis of the deposited data

How the results depend on the processing

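Across the alternatives, 54 of the 80 recomputed values over all imprinted genes stayed near the reported value and 26 moved. Changes of direction were not scored. Of 168 values per domain, 129 stayed and 39 moved. Many of the domain values that stayed were counts of 0 that a stricter setting could not change, so the 129 do not measure stability. Requiring a gene end inside the anchor bin left 7 DKO and 9 WT pixels, 7 and 4 genes, and 3 and 8 matched pixels, with no pixel listed in both libraries. A window of 20 kb raised the WT genes to 14, the DKO count being 14 as well. With FDR under 0.01 there were 8 DKO and 7 WT pixels at 6 and 4 genes, 5 and 7 of them matched, and median enrichment was 7.17 in DKO cells and 6.20 in WT cells. With at least 20 observed contacts there were 6 DKO and 6 WT pixels at 5 and 4 genes, 4 and 6 of them matched, and median enrichment was 7.17 and 6.0. These settings keep fewer pixels by construction. Against the bottom-left expected count median enrichment was 5.06 in DKO cells and 4.85 in WT cells, against the horizontal one 4.83 and 4.72, and against the vertical one the medians were 5.39 in DKO cells and 4.08 in WT cells; the cause was not tested. Matching by identical bins left 6 DKO and 6 WT pixels, matching within 1 bin 12 and 19, and matching within 5 bins 16 and 20. The median log2 DKO/WT ratio at pixels listed in both libraries was recomputed under alternatives chosen after seeing the data. It ran from -0.10 to 0.12 and so took both signs. Depth limits single values: pixels at imprinted genes held 12 to 31 contacts in DKO cells and 12 to 41 in WT cells. No paired analysis was possible because there was a single library of each genotype, without replicate numbers.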

Other observations

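Genes whose products set or keep imprints were counted by the same rule. Of 17 such genes, 4 had a contact at an end in the DKO list and 5 in the WT list. Those are 23.5% and 29.4%, beside 20.1% and 21.2% of all protein-coding genes, so both lie near the background. Dnmt3l, the cofactor of de novo DNA methylation, had the same pixel of 130 kb in both lists, with 29 contacts in DKO cells and 30 contacts in WT cells at enrichments of 6.09 (4.08 to 8.74) and 6.11 (4.12 to 8.72). Trim28, the corepressor recruited by KRAB zinc finger proteins, had 2 pixels in each list, and the highest of each list spanned 35 kb. These were different contacts. That of DKO cells joined bins starting at 12975001 and 13010001 and held 26 contacts at an enrichment of 2.60 (1.70 to 3.80). That of WT cells joined bins starting at 13005001 and 13040001 and held 22 contacts at 3.14 (1.97 to 4.75). The insulator gene Ctcf and the chromatin gene Smchd1 had a contact in the DKO list alone, with 19 and 14 contacts. Zfp57, Uhrf1 and the histone methyltransferase gene Setdb1 had one in the WT list alone, with 14, 13 and 15 contacts. Of all protein-coding genes 7.14% were in the DKO list alone and 8.24% in the WT list alone. The genes found in a single list all had at most 19 contacts at their highest pixel, and the differences between the lists were not tested.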
